A study of Homo sapiens with 8 samples.

Results

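Glycolysis turns glucose into pyruvate in the cytosol, and lactate dehydrogenase reduces that pyruvate to lactate, which leaves the cell through monocarboxylate transporters. Many of the genes for these steps are also known targets of the hypoxia-inducible factors (HIFs), each a pair of an oxygen-regulated alpha subunit and ARNT. When oxygen is present, prolyl hydroxylases of the EGLN family mark the alpha subunits for capture by the VHL ubiquitin ligase and destruction by the proteasome, so that HIF protein is controlled largely after its mRNA is made. Bortezomib, the drug to which one of the lines studied here is resistant, is a proteasome inhibitor.

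The 39 genes described here are glycolytic enzymes, glucose and lactate transporters, kinases that regulate the pathway, the HIF factors with their oxygen sensors, and further HIF targets. They were chosen by gene symbol, and each was found once among the 18564 genes of the deposited table. RNA came from LP-1, a human myeloma cell line, either wild type (WT) or its bortezomib-resistant (BR) derivative. Cells of each line received vehicle (DMSO in the sample titles, with the WT vehicle cells called untreated in another label) or 25 nM SI-2, an inhibitor of the coactivator SRC-3, for 24 h. The 4 conditions were WT vehicle, WT SI-2, BR vehicle and BR SI-2, with 2 libraries each. Both lines were grown in RPMI-1640 with serum, whose share the labels and the study's methods give differently, and the BR cells had been kept with bortezomib for 2 months. BR is 1 derived line, so that resistance, exposure to the drug and time in culture cannot be told apart. For BR cells with vehicle or SI-2 the study states 2 independent experiments. The sources used here say nothing of this for the WT libraries. Whether same-numbered vehicle and SI-2 libraries came from 1 culture is not stated. Such libraries deviated together, with a correlation of 0.44 in WT and 0.39 in BR. Comparisons of 4 against 4 libraries count them as separate, so n = 4 may overstate the number of independent cultures. The p-values measure the spread between these libraries, which may be technical for WT.

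Library totals ran from 17997771 to 18570027 estimated counts. Of 15 plasma cell markers listed, 13 were in the table and each had more than 3 counts in every library. Of 17 markers of other cell types, 16 were in the table. BR replicate 2 had 10 of them above 3 counts under vehicle and 11 under SI-2. Every other library had 5 or 6. Levels are given as CPM, each count as parts of 1000000 library counts, after scaling by the trimmed mean of M-values (TMM). Without PECAM1, the summed level of these markers was 7.88 to 11.1 CPM in 7 libraries and 130.1 CPM in BR SI-2 replicate 2. That library held 53.8 CPM of COL1A1, 52.1 CPM of COL3A1 and 8.09 CPM of COL1A2, collagens of connective tissue. Of the differences described below, those of EPAS1, SLC16A3, ENO2, VEGFA, NDUFA4L2, P4HA2 and PECAM1 between the lines, SLC16A3 under SI-2, and ALDOA and BNIP3L between replicates are also given without it.

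The promoters of 4 members are shown, chosen after their values in these libraries were known. Any link between the sites and the levels was not tested. LDHA was higher in every BR library, with an adjusted p under 0.05 in DESeq2 but not in edgeR. Its paralogue LDHB did not pass any test. HK2 and SLC2A1 shared their highest libraries, a split that was common in the whole table. Each sequence is the 250 bases before the most upstream start listed by RefSeq on GRCh38.p14, and capitals mark ACGTG or GCGTG on either strand, the core letters of a hypoxia response element. Where both strands matched at one place, as in CACGTG, the letters were counted as 1 site.
LDHA (chr11:18394313-18394562, plus strand): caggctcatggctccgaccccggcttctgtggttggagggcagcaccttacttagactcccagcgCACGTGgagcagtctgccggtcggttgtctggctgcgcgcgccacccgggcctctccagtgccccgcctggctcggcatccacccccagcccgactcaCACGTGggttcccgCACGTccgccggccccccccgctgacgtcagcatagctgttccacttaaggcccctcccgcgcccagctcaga
LDHB (chr12:21657843-21658092, minus strand): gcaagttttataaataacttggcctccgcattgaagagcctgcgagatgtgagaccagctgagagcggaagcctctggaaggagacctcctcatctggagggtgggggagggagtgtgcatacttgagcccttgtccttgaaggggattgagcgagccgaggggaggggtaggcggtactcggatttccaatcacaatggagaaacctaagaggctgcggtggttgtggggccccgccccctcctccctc
HK2 (chr2:74833877-74834126, plus strand): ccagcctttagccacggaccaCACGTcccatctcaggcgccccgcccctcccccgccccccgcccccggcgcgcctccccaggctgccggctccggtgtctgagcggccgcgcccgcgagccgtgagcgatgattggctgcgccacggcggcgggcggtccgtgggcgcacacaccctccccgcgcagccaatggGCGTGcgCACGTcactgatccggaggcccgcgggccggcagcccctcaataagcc
SLC2A1 (chr1:42958869-42959118, minus strand): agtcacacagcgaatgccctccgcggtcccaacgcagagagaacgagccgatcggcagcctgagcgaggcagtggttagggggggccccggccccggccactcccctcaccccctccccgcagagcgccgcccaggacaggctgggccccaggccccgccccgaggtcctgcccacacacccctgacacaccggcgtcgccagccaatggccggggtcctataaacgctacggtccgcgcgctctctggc

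The LDHA window held 3 such sites and the HK2 window held 3, while the windows of LDHB and SLC2A1 held 0. A window was listed for 32 members, some with several starts, and 26 of these had a site in at least 1 window. A gene with several starts has more chances of a site. The share of all genes counted this way was not computed. Counted by window, 34 of 60 member windows (56.7%) held a site, against 43.2% of all 35116 windows. A match of letters is a description and not a binding site, and a window without one says only that these letters are not in it.

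The pathway was strongly expressed in LP-1 cells. Levels between genes are compared here as FPKM (fragments scaled by transcript length and library size, as the authors computed them). GAPDH, which oxidizes glyceraldehyde-3-phosphate, had 1123 to 1525 FPKM and ranked 30 among all genes by its mean. Next came the aldolase ALDOA (535 to 790.1 FPKM), the enolase ENO1 (493 to 671 FPKM), and the lactate dehydrogenase subunits LDHA (392 to 537 FPKM) and LDHB (410.1 to 457 FPKM). These 5 genes supplied 70.6% to 74.1% of the summed FPKM of the 39 members. The 17 enzymes from hexokinase to lactate dehydrogenase together made up 0.905% to 1.08% of all FPKM, with a mean of 0.941% ± 0.028 (SD, n = 4) over WT libraries and 1.02% ± 0.062 (SD, n = 4) over BR libraries. The lines overlapped, since the highest WT library had 0.965% and the lowest BR library 0.959%. BR replicate 1 had 1.08% under vehicle and 1.07% under SI-2, and BR replicate 2 had 0.977% and 0.959%.

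**Figure D1:**
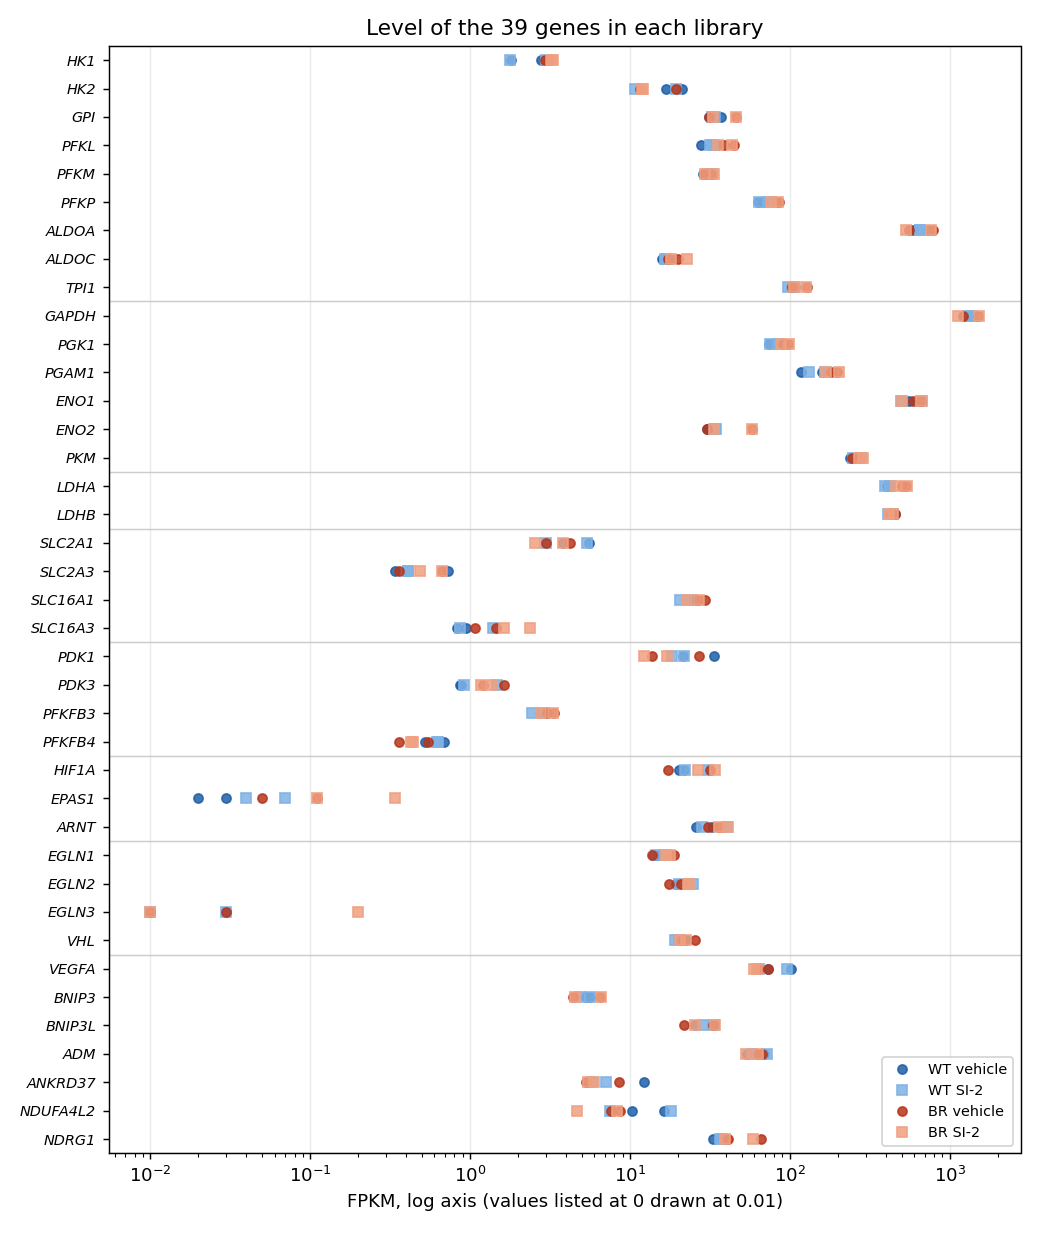
FPKM of each of the 39 genes in each of the 8 libraries on a log axis, with genes in rows by role and grey lines between roles. GAPDH lies highest at 1123 to 1525 FPKM, and EPAS1 and EGLN3 lie lowest.

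The paralogues of hexokinase, aldolase and enolase contributed unequally. Among hexokinases, the first enzymes of the pathway, HK2 made up 78.1% to 92.1% of the FPKM of HK1 plus HK2. ALDOA made up 96.7% to 97.6% of the aldolases listed, and ENO2, the enolase best known from neurons, only 4.4% to 8.06% of the enolases. Phosphofructokinase, which commits sugar to glycolysis, was spread over 3 genes, with PFKP at 49.1% to 54.7% of their FPKM. Lactate dehydrogenase was shared almost evenly between its subunits. For lactate export SLC16A1 (MCT1) stood at 20.7 to 29.5 FPKM and SLC16A3 (MCT4) at 0.83 to 2.37 FPKM, and the glucose transporters SLC2A1 (2.54 to 5.58 FPKM) and SLC2A3 (0.34 to 0.73 FPKM) were low beside the enzymes.

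Pyruvate kinase, the last energy-yielding step, is encoded by PKM, whose splice forms differ in their regulation. The table listed 11 PKM transcripts, and XM_005254445.5 carried 92.1% to 94.5% of their FPKM in every library (221 to 270.1 FPKM). XR_001751314.2 came next with 2.82% to 4.13%. NM_002654.5, NM_182470.3 and NM_182471.3 reached at most 1.18, 0.26 and 0.04 FPKM. The sources used here do not say which form of the enzyme XM_005254445.5 encodes, so no share of the forms is given. The gene as a whole lay between 567 and 674 CPM, with WT and BR libraries overlapping.

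HIF1A, the widely expressed alpha subunit (17.4 to 34 FPKM), its partner ARNT (25.8 to 41.3 FPKM), VHL (19.2 to 25.6 FPKM) and the hydroxylases EGLN1 (13.8 to 18.9 FPKM) and EGLN2 (17.6 to 24.7 FPKM) had middling levels. EPAS1, the alpha subunit HIF-2 alpha, had 0.02 to 0.34 FPKM. EGLN3 was listed at 0 in 3 libraries. These last genes failed the filter on low counts in the comparison of the lines, which left 37 members, while the fit over the 4 conditions kept EPAS1 as well and had 38.

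EPAS1 had 3 and 2 estimated counts in the WT vehicle libraries, 6 and 4 counts in WT with SI-2, 10 and 5 counts in BR with vehicle, and 10 and 32 counts in BR with SI-2. EGLN3 had 8 counts in BR SI-2 replicate 2 and at most 1 elsewhere. Both genes were thus highest in the library that also held the collagens, and the part of that in their values was not tested. Under SI-2, EPAS1 was 1.98 ± 0.68 (SE) higher in BR on the log2 scale (adjusted p = 0.998, edgeR), and 0.97 higher without that library. EPAS1 reached 10 counts only in BR libraries, so the filter kept it through the line where it was higher. Its direction between the lines is therefore no separate finding.

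The first comparison asked whether bortezomib-resistant LP-1 cells express this pathway differently from the parent, over both treatments. LDHA, PGAM1 and PFKP were higher in all 4 BR than in all 4 WT libraries, by 0.27 to 0.36 on the log2 scale, and PFKFB4 was lower in all BR libraries. None of the 37 members passed an adjusted p under 0.05 in the quasi-likelihood test of edgeR, where 49 of 13520 genes did (0.362%). At an unadjusted p under 0.05, 10 of 37 members differed, 7 of them higher in BR and 3 lower, against 14.4% of all genes. The median log2 difference of the members was 0.12, beside 0.0042 for all genes tested, with 23 higher and 14 lower. The count of 10 fell to 6 without WT vehicle replicate 2 and to 6 without BR SI-2 replicate 2, and the median to 0.05 without WT SI-2 replicate 1. DESeq2 called 1 of the 37 members, LDHA, and 399 of the 13520 genes fitted, so the members' share lay near that of all genes.

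**Figure D2:**
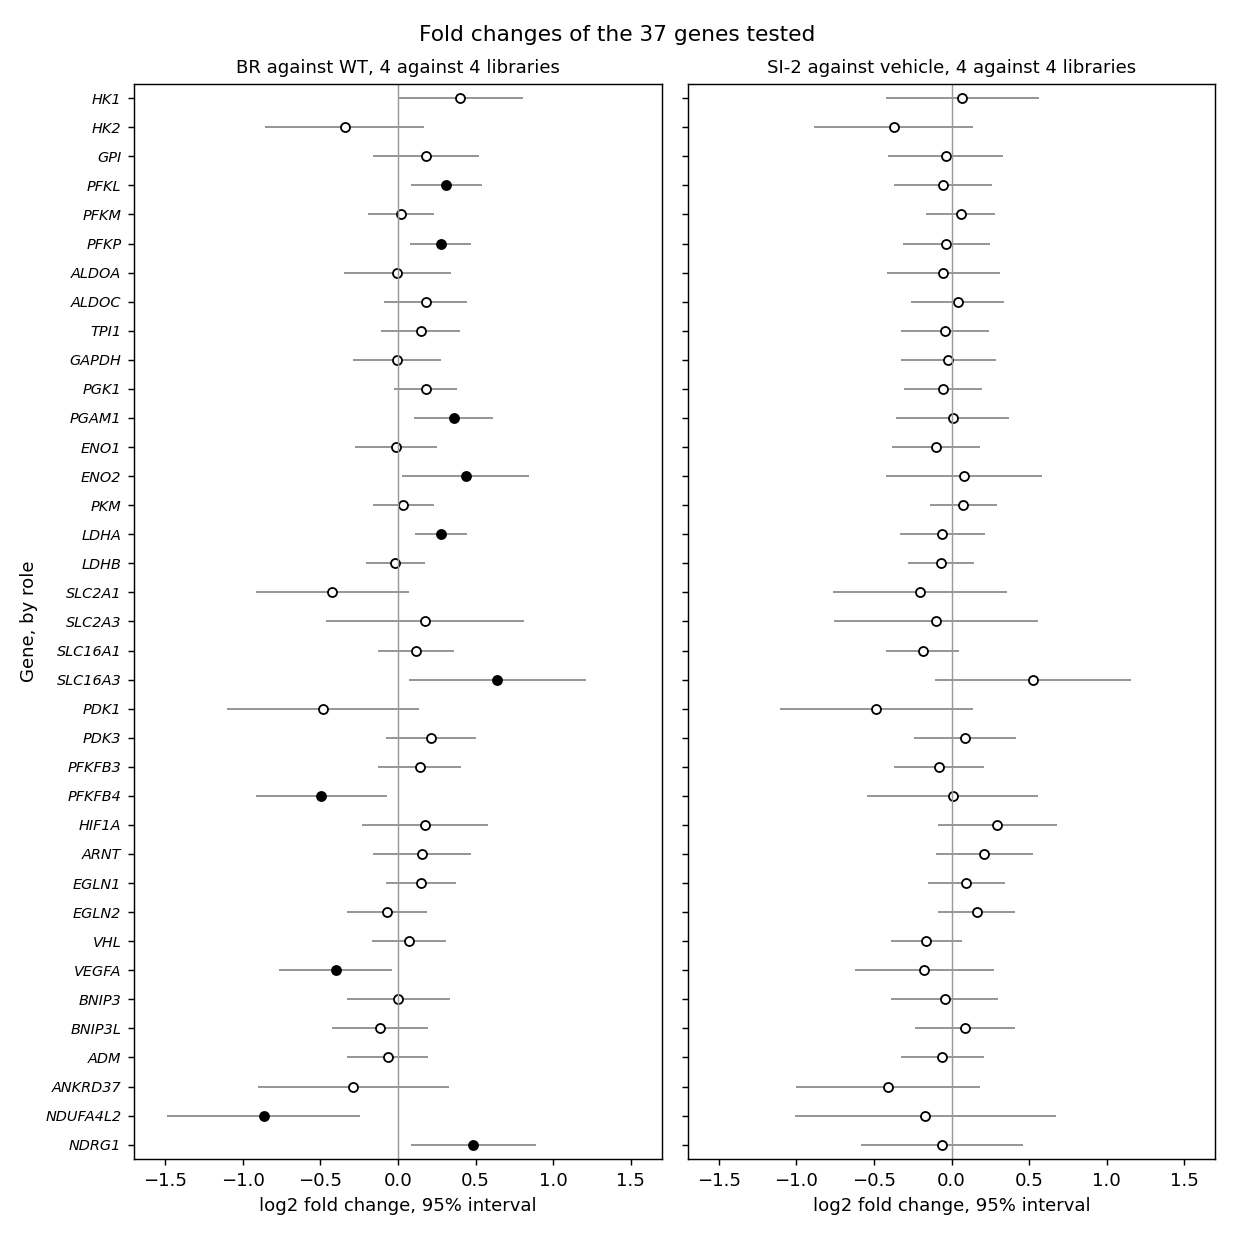
Log2 fold changes of the 37 members tested with their 95% intervals, BR against WT on the left and SI-2 against vehicle on the right. Filled points have an unadjusted p under 0.05 in edgeR, 10 on the left and 0 on the right.

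LDHA encodes the subunit of lactate dehydrogenase that predominates in muscle and favours lactate formation. It measured 959 and 903 CPM in WT vehicle, 927 and 879.6 CPM in WT SI-2, 1138 and 1137 CPM in BR vehicle and 1038 and 1125 CPM in BR SI-2. The lowest BR library lay above the highest WT library, and the means were 917 ± 33.9 (SD, n = 4) and 1109.6 ± 48 CPM (SD, n = 4). The difference was 0.28 ± 0.076 (SE) on the log2 scale, a 1.21-fold higher level in BR, with adjusted p = 0.169 in edgeR and 0.0093 in DESeq2. Leaving out any 1 library gave 0.26 to 0.31. LDHB, the subunit that predominates in heart, differed by -0.02 (95% interval -0.21 to 0.17). The ratio of LDHA to LDHB in FPKM was 0.932 to 0.957 in WT libraries and 1.05 to 1.29 in BR libraries. These did not overlap, which largely restates the LDHA difference, since LDHB hardly differed. Among all genes tested, 521 (3.85%) had every BR library above every WT library and 589 (4.36%) had every one below, and among the members these were 3 and 1.

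PGAM1, which moves the phosphate of 3-phosphoglycerate, measured 304 and 219.8 CPM in WT vehicle, 305 and 251 CPM in WT SI-2, 347 and 357 CPM in BR vehicle and 321 and 358 CPM in BR SI-2. It stood 0.36 ± 0.12 (SE) higher in BR on the log2 scale (adjusted p = 0.22, edgeR). The WT libraries spread more widely than the BR libraries, but none of them reached the lowest BR value.

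Of the phosphofructokinase genes, PFKP and PFKL had an unadjusted p under 0.05 between the lines, and neither passed the adjusted test in edgeR. PFKP, the platelet isoform and the most abundant here, measured 179 and 163 CPM in WT vehicle, 162 and 189 CPM in WT SI-2, 227 and 205 CPM in BR vehicle and 202 and 203 CPM in BR SI-2. Its difference was 0.27 ± 0.09 (SE, adjusted p = 0.225, edgeR) and the lines did not overlap. PFKL, the liver isoform, measured 107, 83, 97 and 94.2 CPM in the WT libraries in that order and 117, 128, 106 and 121 CPM in the BR libraries. It differed by 0.31 ± 0.1 (SE, adjusted p = 0.225, edgeR), with 1 WT library just above the lowest BR library. PFKM, the muscle isoform, differed by 0.02 (95% interval -0.19 to 0.23).

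PFKFB4 makes and degrades fructose 2,6-bisphosphate, the activator of phosphofructokinase, and was the member whose 4 BR libraries all lay below WT. Its levels were low, 2.5 and 1.87 CPM in WT vehicle and 2.25 and 2.28 CPM in WT SI-2, against 1.36 and 1.86 CPM in BR vehicle and 1.64 and 1.48 CPM in BR SI-2. The difference fell by 0.49 ± 0.19 (SE) on the log2 scale with adjusted p = 0.283 in edgeR, and the nearest WT and BR libraries were 1.87 and 1.86 CPM. Its relative PFKFB3 had 9.56 to 13.1 CPM with a difference of 0.14 (95% interval -0.13 to 0.41).

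**Figure D3:**
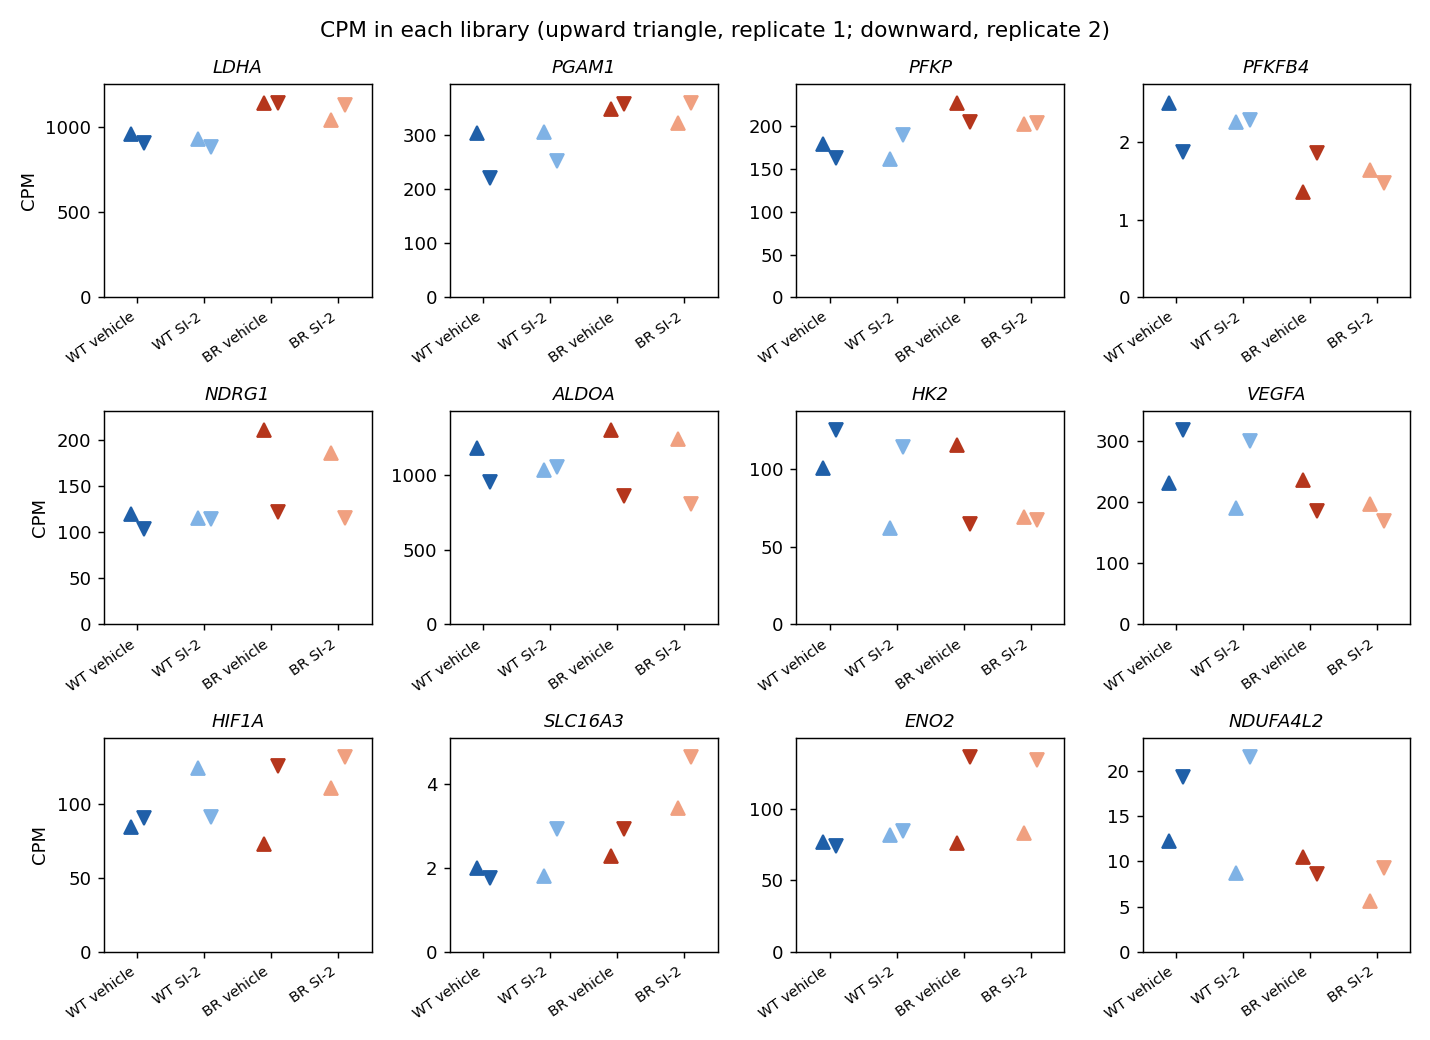
CPM of 12 members in each library, with WT in blue and BR in red and upward and downward triangles for replicates 1 and 2; each axis starts at 0. LDHA, PGAM1 and PFKP separate the lines, NDRG1 and ALDOA separate the BR replicates, and HK2 and VEGFA are high in 4 libraries from 3 conditions.

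Upstream of phosphofructokinase, no gene had an unadjusted p under 0.05. HK1 measured 10.5 and 6.54 CPM in WT vehicle, 10.8 and 6.65 CPM in WT SI-2, 11.7 and 10.3 CPM in BR vehicle and 12.3 and 11.2 CPM in BR SI-2, a difference of 0.40 (95% interval -0.002 to 0.81). The abundant HK2 gave -0.34 (95% interval -0.86 to 0.17), which became -0.22 without WT vehicle replicate 2 and -0.58 without BR vehicle replicate 1. The isomerase GPI gave 0.18 (95% interval -0.16 to 0.52), and 0.07 without BR vehicle replicate 1. Further down the pathway PGK1, which makes the first ATP, was 0.18 higher in BR (95% interval -0.03 to 0.38), and the triosephosphate isomerase TPI1 gave 0.15 (95% interval -0.11 to 0.40). GAPDH, ALDOA, ENO1 and PKM, the most abundant genes of their steps, differed by -0.01, -0.0046, -0.01 and 0.03 on the log2 scale, with signs that turned when single libraries were left out.

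ENO2 divided the BR libraries by replicate. It measured 76.5 and 74.1 CPM in WT vehicle, 81.7 and 84.6 CPM in WT SI-2, 75.8 and 136 CPM in BR vehicle and 82.9 and 134 CPM in BR SI-2. Both BR replicate 2 libraries thus stood far above the other 6, and both BR replicate 1 libraries lay within the WT range. The pooled difference of 0.43 ± 0.19 (SE, adjusted p = 0.322, edgeR) rests on the replicate 2 libraries, and was 0.31 without BR SI-2 replicate 2.

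NDRG1, a hypoxia-induced gene of uncertain function, had the opposite arrangement. It measured 119.6 and 103 CPM in WT vehicle, 116 and 115 CPM in WT SI-2, 211 and 122 CPM in BR vehicle and 186 and 115 CPM in BR SI-2. Here the BR replicate 1 libraries stood above all others, and BR replicate 2 lay at the WT level. The pooled difference was 0.49 ± 0.18 (SE, adjusted p = 0.27, edgeR), and 0.31 without BR vehicle replicate 1.

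SLC16A3, the lactate exporter linked to highly glycolytic cells, had the largest positive difference among the 37 members tested between the lines, at low counts. It measured 2 and 1.74 CPM in WT vehicle, 1.79 and 2.93 CPM in WT SI-2, 2.27 and 2.92 CPM in BR vehicle and 3.43 and 4.63 CPM in BR SI-2. The difference between the lines was 0.64 ± 0.26 (SE) on the log2 scale (adjusted p = 0.302, edgeR), and 0.43 without BR SI-2 replicate 2, the highest library and the one with the collagens. The part of that library's other transcripts in the value was not tested. SLC16A1, the main transporter, differed by 0.12 (95% interval -0.13 to 0.36).

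Among the other HIF targets 5 of 7 were lower in BR and 2 higher. NDUFA4L2, a mitochondrial protein induced by HIF-1, measured 12.3 and 19.3 CPM in WT vehicle, 8.73 and 21.5 CPM in WT SI-2, 10.4 and 8.65 CPM in BR vehicle and 5.59 and 9.29 CPM in BR SI-2. It gave the largest negative difference of the 37 members, falling by 0.86 ± 0.28 (SE) on the log2 scale (adjusted p = 0.221, edgeR), with 1 WT library inside the BR range, and the difference was -0.91 without BR SI-2 replicate 2. VEGFA, the angiogenic growth factor, measured 231 and 318 CPM in WT vehicle, 191 and 301 CPM in WT SI-2, 236 and 186 CPM in BR vehicle and 197 and 169.9 CPM in BR SI-2. Its difference fell by 0.40 ± 0.17 (SE, adjusted p = 0.314, edgeR), and was -0.34 without BR SI-2 replicate 2. The mitophagy receptors BNIP3 (0.0012) and BNIP3L (-0.12), the vasodilator peptide ADM (-0.07) and ANKRD37 (-0.29) had unadjusted p-values above 0.05, and ANKRD37 turned to 0.05 without WT vehicle replicate 1.

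HIF1A gave 0.17 (95% interval -0.23 to 0.58), ARNT gave 0.16 (95% interval -0.16 to 0.47) and EGLN1 gave 0.15 (95% interval -0.08 to 0.37). With 1 library left out, HIF1A ran from 0.08 (without BR SI-2 replicate 2) to 0.33 (without BR vehicle replicate 1), and ARNT from 0.07 (without BR SI-2 replicate 1) to 0.28 (without WT SI-2 replicate 1). The pyruvate dehydrogenase kinase PDK1, which keeps pyruvate out of the mitochondrion, ran from 39.8 to 124 CPM and gave -0.48 (95% interval -1.1 to 0.13). This became -0.24 without WT vehicle replicate 1 and -0.80 without BR vehicle replicate 1. For PDK1 the libraries of 1 condition differed by 1.67-fold in WT vehicle and 2.17-fold in BR vehicle.

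Within single treatments the lines were compared with 2 libraries a side. Under vehicle 0 of 38 members had an adjusted p under 0.05 (all genes, 0 of 13896, 0%), and 0 had an unadjusted p under 0.05, against 3.89% of all genes. Under SI-2 the adjusted test called 0 members and 0.0072% of genes, and 3 members had an unadjusted p under 0.05 against 4.09% of all genes. These were EPAS1, SLC16A3 and NDUFA4L2. Their log2 differences were 1.98, 0.76 and -1.02 under SI-2 and 1.51, 0.46 and -0.73 under vehicle. The directions of SLC16A3 and NDUFA4L2 were thus shared, while EPAS1 had passed the filter only through its BR libraries. Without BR SI-2 replicate 2 the differences under SI-2 became 0.97, 0.54 and -1.43. NDUFA4L2 under SI-2 ran from -1.54 without WT SI-2 replicate 1 to -0.24 without WT SI-2 replicate 2, and SLC16A3 from 0.45 to 1.15 without the same libraries. Under vehicle EPAS1 became 0.90 without BR vehicle replicate 1, SLC16A3 0.27 without BR vehicle replicate 2, and NDUFA4L2 -0.35 without WT vehicle replicate 2.

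The second comparison asked what SI-2 did to these genes. In both lines together no member had an unadjusted p under 0.05, where 2.22% of all genes did, and 0% of genes passed the adjusted test with edgeR (300 of 13520 at the unadjusted threshold, and 0 by DESeq2 after adjustment). No member had its 4 SI-2 libraries all above or all below the vehicle libraries, against 1.42% of all genes. The median log2 difference was -0.04, with 14 members higher and 23 lower. For LDHA the 95% interval ran from -0.33 to 0.21. For GAPDH (-0.02, with a sign that turned without BR vehicle replicate 1 or BR SI-2 replicate 2) it ran from -0.33 to 0.29. Both intervals describe the spread between these libraries pooled over the lines, and do not bound the change in a single line or in new cultures.

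The largest estimates under SI-2 all had intervals that held 0. SLC16A3 was 0.52 higher on the log2 scale (95% interval -0.11 to 1.15), and 0.29 without BR SI-2 replicate 2. PDK1 gave -0.48 (95% interval -1.11 to 0.14), and -0.25 without WT vehicle replicate 1. HK2 gave -0.37 (95% interval -0.89 to 0.14), and -0.62 without WT SI-2 replicate 2. ANKRD37 gave -0.41 (95% interval -1.0 to 0.19), and -0.11 without WT vehicle replicate 1. HIF1A gave 0.29 (95% interval -0.09 to 0.68), and 0.19 or 0.47 without BR vehicle replicate 1 or 2. Taken in WT and BR cells alone, the test called 0 members and 0% of genes in each, and the interaction of line and SI-2 called 0 members and 0% as well.

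Some members shared a set of high libraries that crossed both line and drug. HK2 measured 101 and 125 CPM in WT vehicle, 62.5 and 114 CPM in WT SI-2, 115 and 65 CPM in BR vehicle and 69.6 and 67.6 CPM in BR SI-2. Its values fell into a higher set of 4 libraries (both WT vehicle libraries, WT SI-2 replicate 2 and BR vehicle replicate 1) and a lower set of 4, with nothing between 69.6 and 101 CPM. SLC2A1, the principal glucose transporter, had the same 4 libraries on top, with 14.4, 20.9, 20.1 and 16 CPM against 11, 10.7, 9.53 and 13.3 CPM. VEGFA and NDUFA4L2 also had these 4 libraries highest, and HIF1A, ARNT and EGLN1 had their 4 lowest values in them. Most WT and most vehicle libraries were in this set, so it was not independent of line or drug. VEGFA and NDUFA4L2 were also among the members with an unadjusted p under 0.05 between the lines (edgeR).

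HIF1A, for example, measured 84.7, 90.3, 91 and 72.8 CPM in the libraries where HK2 was high and 124, 125, 111 and 132 CPM in the others. The 4 libraries were defined by HK2 itself, so no test is given. With HK2 counted, 4 of 37 members had these libraries as their 4 highest, beside 8.89% of all genes, and 3 had them as their 4 lowest, beside 9.48% of all genes. A split of the libraries along these lines was therefore common in the whole table and the members' share lay near that background.

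**Figure D4:**
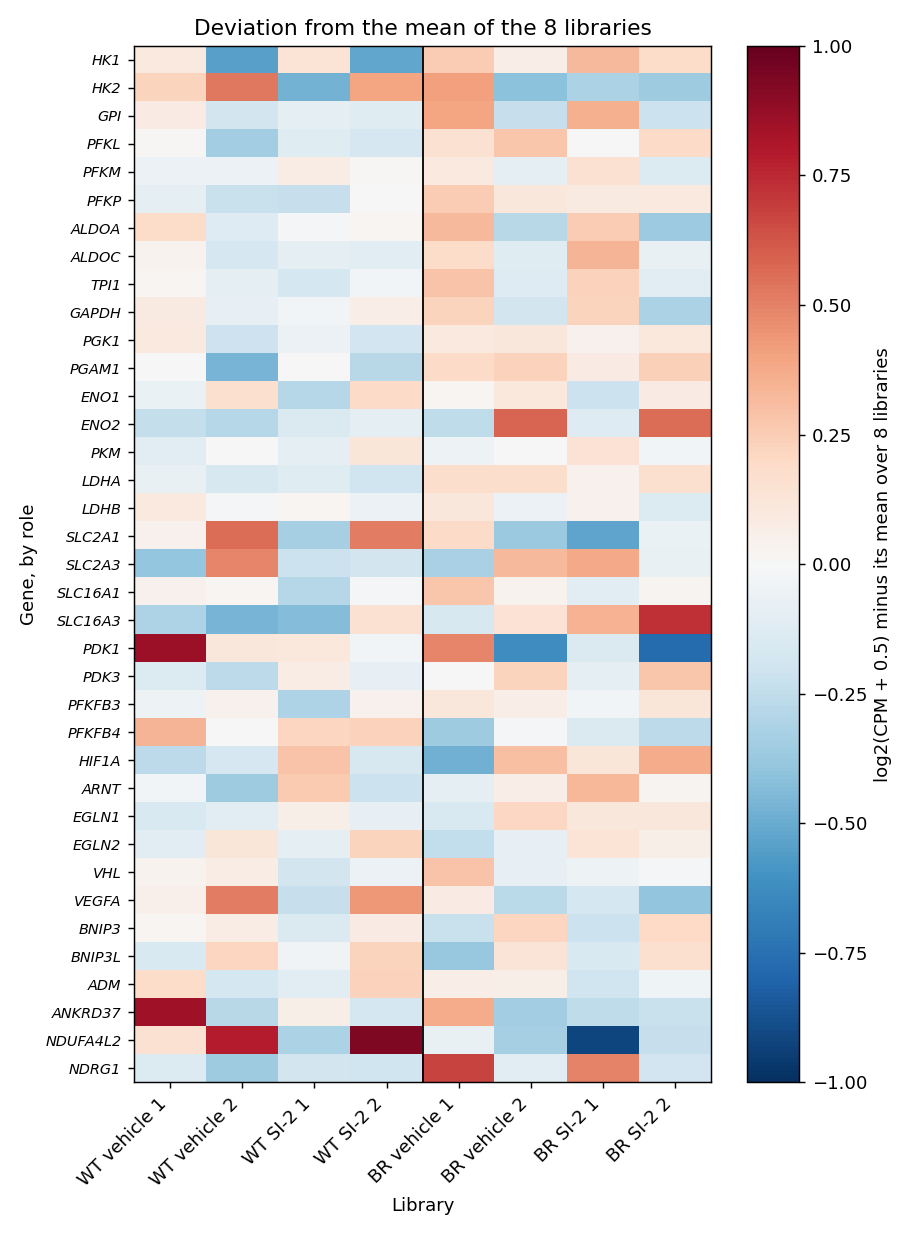
Each library's log2(CPM + 0.5) for the 37 members minus the gene's mean over the 8 libraries, red above and blue below, with the colour scale ending at -1 and 1 and a line between WT and BR. HK2, SLC2A1 and VEGFA are red in the same 4 libraries, where HIF1A, ARNT and EGLN1 are blue.

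The replicate numbers were compared in the same way, since the BR replicates differed for ENO2 and NDRG1. At an unadjusted p under 0.05, 11 of 37 members differed between replicate 2 and replicate 1, 4 higher and 7 lower, against 16.9% of all genes, and 0 of them passed the adjusted test in edgeR, which called 0.925% of genes. DESeq2 called 746 of the 13520 genes fitted and 3 of the 37 members. These were BNIP3L (adjusted p = 0.00839), ALDOA (0.0356) and GPI (0.0414). The count of 11 fell to 4 without BR vehicle replicate 1 and to 7 without WT vehicle replicate 1 or BR SI-2 replicate 1, and the 125 calls among all genes to 0 in 6 of the 8 fits that left out a library. BNIP3L, a receptor that marks mitochondria for removal, was higher in replicate 2 of every condition, with 92.1 and 119 CPM in WT vehicle, 100.2 and 119 CPM in WT SI-2, 78.5 and 112 CPM in BR vehicle and 92 and 114 CPM in BR SI-2. The difference was 0.36 ± 0.092 (SE, adjusted p = 0.0917, edgeR), and 0.37 without BR SI-2 replicate 2.

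ALDOA, GPI, GAPDH and TPI1 were lower in replicate 2 of both BR conditions, while ENO1 was higher in replicate 2 of every condition. ALDOA measured 1183 and 952 CPM in WT vehicle, 1031 and 1054 CPM in WT SI-2, 1299.6 and 857 CPM in BR vehicle and 1242 and 809 CPM in BR SI-2. Replicate 1 thus exceeded replicate 2 by 1.52-fold and 1.54-fold in the BR conditions and by 1.24-fold and 0.978-fold in the WT conditions. The same ratios in BR were 1.54 and 1.49 for GPI, 1.33 and 1.46 for GAPDH and 1.33 and 1.28 for TPI1, while ENO2 had 0.558 and 0.62. Other abundant enzymes did not share the drop, with 0.947 and 0.811 for ENO1, 1.001 and 0.923 for LDHA and 0.970 and 0.896 for PGAM1. For ENO1 the ratios in WT were 0.857 and 0.718. Pooled over conditions the differences were -0.37 for ALDOA, -0.39 for GPI and -0.25 for GAPDH, with adjusted p-values of 0.136, 0.128 and 0.268 in edgeR, and ALDOA gave -0.32 without BR SI-2 replicate 2. The flat result for ALDOA and GAPDH between the lines was therefore the mean of high and low BR libraries on either side of WT.

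Genes of neighbouring pathways were looked at as lists. Of 18 tested isoforms and side enzymes of glycolysis outside the members, 0 passed the adjusted test of edgeR in BR against WT (median log2 difference -0.02), and the smallest p-values belonged to the monocarboxylate transporters SLC16A8 (-0.51) and SLC16A7 (-0.19). Of 13 genes of mitochondrial pyruvate entry and oxidation, 0 passed in edgeR (median 0.01). MPC1, a subunit of the mitochondrial pyruvate carrier, had 61.9 and 70.6 CPM in WT vehicle, 62.2 and 71.8 CPM in WT SI-2, 46.6 and 52.6 CPM in BR vehicle and 48 and 52.5 CPM in BR SI-2. It was lower in every BR library, by a log2 difference of -0.42 (adjusted p = 0.105 in edgeR and 0.00444 in DESeq2). PDP2, a phosphatase that activates pyruvate dehydrogenase, gave -0.42 (adjusted p = 0.158 in edgeR and 0.0313 in DESeq2). Of 10 pentose phosphate genes 0 passed in edgeR, with the transketolase TKT at -0.46 and PRPS1 at 0.25.

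Further HIF targets were listed with earlier results of these data known, so a pass among them is no separate finding. Of 44 tested, 1 passed in edgeR, beside 0.362% of all genes. The 1 gene was higher in BR, while the list's median was -0.04. It was P4HA2, a prolyl hydroxylase of collagen, with 69.6 and 55.6 CPM in WT vehicle, 89.7 and 63.7 CPM in WT SI-2, 167 and 206 CPM in BR vehicle and 184 and 205 CPM in BR SI-2. The difference was 1.45 ± 0.15 (SE) on the log2 scale, 2.73-fold (adjusted p = 0.0022, edgeR). It was 1.36 to 1.60 when any 1 library was left out, and 1.41 without BR SI-2 replicate 2. Of 18 further parts of the oxygen-sensing machinery 0 passed in edgeR, and the smallest p-values belonged to RACK1 (-0.32, called by DESeq2 with adjusted p = 0.0461) and OS9 (-0.53). PECAM1, from the list of other cell types, was 1.29 higher in BR (adjusted p = 0.0104, edgeR), and also 1.29 without BR SI-2 replicate 2. Which cells the PECAM1 RNA came from was not tested. In bulk RNA fewer cells of a kind and less RNA per cell cannot be told apart.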

How the data were processed

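Total RNA from 8 LP-1 libraries was sequenced by the authors on a BGI platform. The submitters' processing notes name hg19, BWA, Bowtie2 and RSEM. The authors deposited estimated counts and FPKM for 18564 genes and their transcripts. Estimated counts need not be whole, since reads that match several genes are divided among them. Of the 39 members, 20 had a count off a whole number by 0.001 or more, LDHA, ALDOA, ENO1 and PGAM1 among them. The fraction does not measure how many reads were divided, and a whole count does not show that none were. The extent of this uncertainty is therefore not known. The deposited table also held 8 columns of averages, and comparison tables with the authors' DEGseq fold changes and p-values, which were not used.

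Counts were rounded, filtered with filterByExpr, scaled by TMM and fitted in edgeR 4.0.16 (R 4.3.3), whose quasi-likelihood test was run over all genes with Benjamini-Hochberg adjustment. Line, SI-2 and replicate number were each tested in a fit with 2 groups of 4 libraries (13520 genes), and single treatments and the interaction in a fit with 4 conditions (13896 genes). The edgeR and DESeq2 fits of the lines and of the 4 conditions were tested on simulated counts. Alternatives were RLE scaling, no filter, a replicate block, DESeq2 1.42.0, limma 3.58.1 on log2(FPKM + 1), condition terms and leaving out each library. PKM transcript shares were taken from FPKM and, as an alternative, from estimated counts. Promoters came from RefSeq on GRCh38.p14, and no coordinates of hg19 were used.

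The members and gene lists were chosen with earlier results of these data known. All members were to be described, with values in each library for those with an unadjusted p under 0.05 between the lines or treatments and for the most abundant paralogue of a step, and from each list any gene past the adjusted threshold or else the 2 with the smallest p between the lines. Counts of 3 or fewer were treated as not detected in the marker lists.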

Additional observations from a re-analysis of the deposited data

Results flagged for a closer look

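In the 37 members tested, each line's 4 libraries were searched for a highest or lowest library set apart from the rest, in 74 groups of 4. The gap to the nearest library, as a share of the group's whole range, passed Dixon's 95% critical value for 4 samples in 7 groups. Chance alone flags about 1 in 20 groups when values are independent and normally spread. Here the groups share the same 8 libraries, and each mixes vehicle with SI-2. The share flagged over all genes was not computed, so the 7 flags are not a result about these members.

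BR vehicle replicate 1 was the high library in 4 of the 7, for HK2 (0.909), PFKP (0.877), VHL (0.86) and ANKRD37 (0.855). HK2 there was 115 CPM against 65 to 69.6 CPM in the other BR libraries. BR SI-2 replicate 1 was the low library for LDHA (0.871), at 1038 CPM against 1125 to 1138 CPM, and still above every WT library. In WT cells PDK1 was high in vehicle replicate 1 (0.876), at 124 CPM against 67 to 74 CPM, and HIF1A was high in SI-2 replicate 1 (0.841), at 124 CPM against 84.7 to 91 CPM.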

How the results depend on the processing

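No member passed an adjusted p under 0.05 in any comparison with edgeR, under RLE scaling, no filter, a replicate block, condition terms, limma or the omission of any library. DESeq2 called 1 member between the lines, LDHA, and 3 between the replicates, ALDOA, BNIP3L and GPI. Of all genes, the call between the lines rose from 49 to 155 with the replicate block and to 399 with DESeq2, and that between the replicates went to 746 with DESeq2, 62 with limma and 0 with condition terms, the cause of which was not tested. Between the lines under vehicle the 0 calls became 3 without a filter, 1 with the replicate block, 28 with DESeq2 and 1 with limma. Under SI-2 the 1 call became 31 with DESeq2 and 0 with limma. SI-2 in WT, SI-2 in BR and the interaction each gave 1 call with DESeq2. The members at an unadjusted p under 0.05 between replicates were 7 with limma. Same-numbered libraries deviated together with r over 0.1 in 4 of 6 pairs of conditions (0.44 in WT, 0.39 in BR, 0.20 and 0.18) and not in the others (0.080 and -0.14, WT SI-2 with each BR condition), so the replicate block was kept as an alternative. Of the genes named MPC1 was the 1 called with the block and not without it (adjusted p = 0.0274, edgeR). With DESeq2, MPC1, PDP2 and RACK1 were called. The median share of XM_005254445.5 in PKM was 93.2% by FPKM and 92.2% by estimated counts.

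With 1 library left out, in turn, calls among all genes ran from 21 (without WT SI-2 replicate 2) to 125 (without WT SI-2 replicate 1) between the lines, from 0 to 67 between the lines under SI-2 and for SI-2 in BR (67 without BR SI-2 replicate 1 in both), and from 0 to 93 between the replicates. A condition left with 1 library was assumed to vary like the others. Members at an unadjusted p under 0.05 ran from 6 to 13 between the lines and from 4 to 10 between the replicates. The members' median log2 difference ran from 0.046 to 0.11 between the lines, 0.0633 to 0.153 under vehicle, 0.0172 to 0.133 under SI-2, -0.0602 to 0.0835 for SI-2 in WT and -0.0866 to 0.0705 for the interaction. GAPDH under SI-2 ran from -0.104 to 0.0715.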
